A study of Mus musculus with 6 samples.

Results

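The transcripts of 6 receptors that bind chemokines, the secreted proteins that guide leukocytes, were examined in macrophages lacking the soluble epoxide hydrolase (sEH), the enzyme encoded by Ephx2 that converts epoxides of polyunsaturated fatty acids to diols. The 6 genes, Cx3cr1, Ccr1, Ccr2, Ccr7, Ccrl2 and Cxcr4, were taken by symbol from the 19309 genes of the deposited count table. Macrophages were grown from the bone marrow of 3 mice of each genotype, sEH-/- and wild-type, and 1 RNA library was sequenced for each mouse. The sEH-/- mice came from a cross of the Ephx2tm1.1Arte allele with the Cre line Gt(ROSA)26Sortm16(Cre)Arte, the wild-type mice were littermates of matched strain, and bone marrow was taken at 8 to 10 weeks of age. The labels do not give the sex of the animals. The study states that most of its experiments used cells from females. It adds that work after its comparison of the sexes used bone marrow of female mice. Cells of both genotypes received the same treatment, namely 7 days with M-CSF and GM-CSF, each at 15 ng/mL, then LPS (10 ng/mL) with IFN-γ (1 ng/mL) to obtain inflammatory M1 macrophages, and then TGF-β1 (10 ng/mL) to repolarize these to the M2c state, which is linked to the resolution of inflammation. The labels give 24 h for LPS with IFN-γ and 48 h for TGF-β1, whereas the methods give 12 h for the first step. No library of M0 or M1 cells was analysed here, so that the values below compare genotypes in the M2c state alone.

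Chemokine receptors are membrane proteins with several transmembrane helices that signal through inhibitory G proteins and steer cells along gradients of their ligands. Monocytes leave the bone marrow and enter inflamed tissue with the help of Ccr2 and Ccr1, whereas Cx3cr1 marks patrolling monocytes and many tissue macrophages, among them microglia, and binds fractalkine (Cx3cl1). Cxcr4 holds leukocytes in the bone marrow, Ccr7 guides mature dendritic cells to lymph nodes, and Ccrl2 binds the chemoattractant chemerin without the usual G protein signal.

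The knocked-out gene was checked first. Read counts of Ephx2 fell from 26, 49 and 57 in wild-type cells to 4, 2 and 1 in sEH-/- cells (log2 fold change -4.05, edgeR adjusted p = 0.00418). The libraries held between 4400197 and 6096440 counts. All 8 macrophage marker genes examined passed the filter on low counts, and Adgre1, which encodes F4/80, ranged from 388 to 468 CPM in the knockout and from 330 to 411 CPM in the wild-type libraries. CPM are counts scaled to a common total over normalized library sizes. In bulk RNA, fewer cells of a type and less RNA in each of them cannot be told apart.

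Of the 6 receptor genes, Cx3cr1 was higher in sEH-/- macrophages and none was lower, at an adjusted p below 0.05 and a fold change above 1.5 in edgeR's quasi-likelihood test. Over all 13785 genes tested, 2.61% were called in either direction and 1.51% were called higher. All 6 receptors passed the filter, a mean above 5 counts, although Ccr2 did so only with its mean of 5.17. For Cx3cr1, Ccr2 and Cxcr4 every sEH-/- library lay above every wild-type library. Genotypes were separated in this way in 26.3% of all tested genes, and in 11.8% with the sEH-/- libraries on top. Log2 fold changes were above 0 in 4 of the 6 receptors and in 49.8% of all tested genes. The median log2 fold change of the 6 genes was 0.27, beside -0.0009 for all tested genes.

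**Figure D1:**
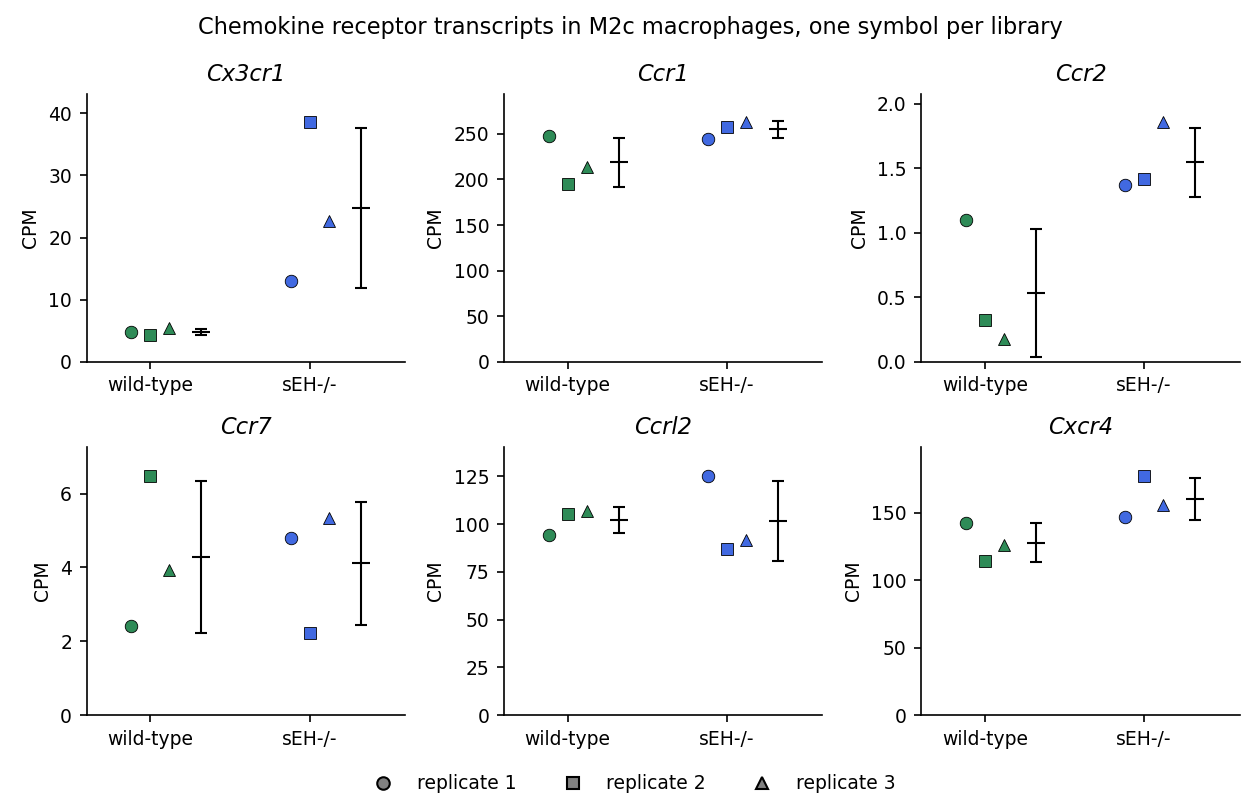
Expression of the 6 chemokine receptor genes in CPM (y axis, linear from 0), with 1 symbol for each library, wild-type in green and sEH-/- in blue. Bars give the mean and SD of 3 libraries; Cx3cr1 lies between 13 and 38.5 CPM in sEH-/- and between 4.38 and 5.38 CPM in wild-type libraries, whereas the genotypes overlap for Ccr1, Ccr7 and Ccrl2.

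Cx3cr1 (ENSMUSG00000052336) lies on the minus strand of chromosome 9 between positions 119901616 and 120069879 (mm10). Its read counts were 76, 191 and 98 in the sEH-/- and 22, 27 and 30 in the wild-type libraries. In CPM these values were 13, 38.5 and 22.7 against 4.84, 4.38 and 5.38. The lowest sEH-/- library was thus above the highest wild-type library, and the means were 24.8 ± 12.9 and 4.87 ± 0.499 CPM (SD, n = 3 each). The log2 fold change was 2.34 with a standard error of 0.37 (edgeR adjusted p = 0.0171).

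The libraries of the genotypes were unequally spread. Among the wild-type libraries the highest Cx3cr1 value was 1.23 times the lowest, and the counts differed by no more than sampling (chi-square per degree of freedom 0.298). Among the sEH-/- libraries the highest value was 2.96 times the lowest, with a chi-square per degree of freedom of 36.4. Spread beyond sampling was also found for receptors that were not called, such as Ccrl2 in sEH-/- (22.9) and Ccr1 in wild-type libraries (16.7). The wild-type counts of Ccr1 were 1128, 1205 and 1190, and did not rise in proportion to the library totals. Without sEH-/- replicate 2, which had the highest value, the log2 fold change was 1.87 and Cx3cr1 was still called higher. The call was lost without wild-type replicate 2 (2.26, adjusted p = 0.086) and without wild-type replicate 3 (2.42, adjusted p = 0.11). Over all genes the number of calls fell from 360 to 25 and to 6 in these fits. The call was also lost in glmTreat, a test against the 1.5-fold threshold itself (adjusted p = 0.090).

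The annotated span of Cx3cr1 overlaps with 9 other genes, among them Csrnp1, Gorasp1 and Xirp1 on the same strand and Wdr48 and Ttc21a on the opposite strand. None of the exonic bases of Cx3cr1 was shared with another gene on its strand, and of its stretches of 50 bases, 0.269% occurred in a transcript of another gene. The 6 other tested genes within 200 kb of Cx3cr1 had log2 fold changes between -0.42 and 0.14, and none was called. None of these neighbours showed a rise of the size seen for Cx3cr1.

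The 250 bases before the RefSeq start sites (GRCm38.p6, minus strand, 5′ to 3′) of the receptor that rose and of Ccr1, a receptor of the same chromosome that was not called, are shown for comparison. Capitals mark matches to the motifs of NF-κB (GGG and CC with any 5 bases between them) and RUNX (TGTGGT), searched on both strands. The first sequence covers chr9:120068297-120068546 and lies within the annotated span of Cx3cr1, and the second covers chr9:123968693-123968942.
Cx3cr1: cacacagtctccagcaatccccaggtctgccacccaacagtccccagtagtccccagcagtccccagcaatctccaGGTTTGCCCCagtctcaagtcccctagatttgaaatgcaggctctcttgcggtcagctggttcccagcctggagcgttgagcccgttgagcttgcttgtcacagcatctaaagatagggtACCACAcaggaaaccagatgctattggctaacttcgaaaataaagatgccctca
Ccr1: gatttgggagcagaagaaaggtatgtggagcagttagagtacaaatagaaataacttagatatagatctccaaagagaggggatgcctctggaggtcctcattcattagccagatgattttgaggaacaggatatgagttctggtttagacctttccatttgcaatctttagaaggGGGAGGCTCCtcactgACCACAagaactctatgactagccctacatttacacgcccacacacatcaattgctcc
Each sequence held 1 match to each of these motifs. The first base of the NF-κB match lay 174 bases before the start of Cx3cr1 and 74 bases before that of Ccr1, and the RUNX match began 54 and 58 bases before the start. The same letters occurred in many promoters of 300 bases, 50.8% of 32851 for NF-κB and 16.8% for RUNX. The letters of the NF-κB motif were also found before Ccrl2, in 1 of its 3 listed promoters, with overlapping matches. Motifs of PU.1 (GAGGAAG), Smad (CAGACA) and the interferon response (GAAA, any 2 bases, GAAA) had no match in the promoters of the 5 receptors other than Ccr7, and were found in 13.6%, 21% and 3.44% of all promoters. The matched letters thus occurred both in a receptor that changed and in receptors that were not called.

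Ccr2 (ENSMUSG00000049103; chromosome 9, positions 124101950 to 124113557, plus strand), the receptor for the monocyte chemoattractants Ccl2, Ccl7 and Ccl12, was close to the limit of detection. Its read counts were 8, 7 and 8 in the sEH-/- and 5, 2 and 1 in the wild-type libraries. In CPM, these values were 1.37, 1.41 and 1.86 against 1.10, 0.325 and 0.179. The genotypes did not overlap, but the 95% Poisson interval of the lowest sEH-/- count (2.81 to 14.4 counts) held the highest wild-type count. The means were 1.55 ± 0.269 and 0.534 ± 0.495 CPM (SD, n = 3 each), and the log2 fold change of 1.58 with a standard error of 0.57 was not called (edgeR adjusted p = 0.128). The ratio of the summed CPM was 3.10 with a counting interval of 1.34 to 8.01, which leaves the spread between mice out. Without wild-type replicate 1, which had the highest wild-type count, the log2 fold change was 2.48 and Ccr2 was called higher (adjusted p = 0.041). Without any 1 of the sEH-/- libraries the gene did not pass the filter, since 23 of its 31 counts came from that genotype. Of its stretches of 50 bases, 1.91% also occurred in transcripts of other genes.

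Ccr1 and Cxcr4 were expressed at high levels in both genotypes. Ccr1 (ENSMUSG00000025804; chromosome 9, positions 123962124 to 123968692, minus strand), which binds inflammatory chemokines such as Ccl3 and Ccl5, had 244, 258 and 263 CPM in the sEH-/- and 248, 196 and 213 CPM in the wild-type libraries. The genotypes overlapped, since wild-type replicate 1 exceeded sEH-/- replicate 1. The wild-type read counts were 1128, 1205 and 1190, in libraries of 4632688, 6096440 and 5448287 counts. Wild-type replicate 1 thus had the highest wild-type CPM with the smallest wild-type library. The means were 255 ± 9.54 and 219 ± 26.7 CPM (SD, n = 3 each), and the log2 fold change of 0.22 with a standard error of 0.092 was not called (adjusted p = 0.179).

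Cxcr4 (ENSMUSG00000045382; chromosome 1, positions 128588199 to 128592293, minus strand), the receptor for Cxcl12, had 147, 178 and 156 CPM in the sEH-/- libraries and 143, 115 and 127 CPM in the wild-type libraries. Every sEH-/- library was above every wild-type library, although the closest pair differed by little. The means were 160 ± 15.8 and 128 ± 14.2 CPM (SD, n = 3 each). The log2 fold change was 0.33 with a standard error of 0.098 and did not pass the test (adjusted p = 0.0791). The authors removed duplicate reads, which limits the counts of highly expressed, short genes. Ccr1 had 0.433 and Cxcr4 had 0.413 counts per exonic base and library. When counts were corrected as if each exonic base could yield at most 1 count, the log2 fold changes were 0.27 and 0.41. Neither was called (adjusted p = 0.11 and 0.055). The limit of 1 is an assumption, and Ccl5 had nearly constant counts at 0.522 counts per exonic base. If the true limit is lower, the correction is too small, so it cannot show that the cap hid no difference. The part of the cap in the overlap of the genotypes for Ccr1 was not tested.

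Ccrl2 (ENSMUSG00000043953; chromosome 9, positions 111054486 to 111057519, minus strand), the chemerin-binding receptor, had 125, 87.0 and 91.8 CPM in the sEH-/- and 94.1, 105 and 107 CPM in the wild-type libraries. The highest value and the lowest values were both found in sEH-/- libraries. The means of 101 ± 20.9 and 102 ± 6.93 CPM (SD, n = 3 each) differed by a log2 fold change of -0.0053 with a standard error of 0.13 (adjusted p = 0.986). The sign of this difference changed with the scaling of the libraries, and was positive with RLE size factors.

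Ccr7 (ENSMUSG00000037944; chromosome 11, positions 99144196 to 99155077, minus strand), the receptor for Ccl19 and Ccl21, was expressed at low levels, with 28, 11 and 23 counts in the sEH-/- and 11, 40 and 22 counts in the wild-type libraries. These counts were 4.79, 2.22 and 5.33 CPM against 2.42, 6.49 and 3.94 CPM. Both genotypes covered almost the same range, and the highest value was 2.40 times the lowest among the sEH-/- and 2.68 times among the wild-type libraries. The means were 4.11 ± 1.66 and 4.28 ± 2.06 CPM (SD, n = 3 each), with a log2 fold change of -0.095 and a standard error of 0.41 (adjusted p = 0.917).

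Levels of different genes were compared per exonic length, as RPKM on the normalized library sizes. In sEH-/- macrophages the order was Ccr1 (90.0 ± 3.37), Cxcr4 (88.6 ± 8.73), Ccrl2 (39.0 ± 8.06), Cx3cr1 (5.50 ± 2.86), Ccr7 (2.08 ± 0.841) and Ccr2 (0.229 ± 0.0398 RPKM; SD, n = 3). In wild-type macrophages it was Ccr1 (77.3 ± 9.42), Cxcr4 (70.8 ± 7.83), Ccrl2 (39.3 ± 2.67), Ccr7 (2.17 ± 1.04), Cx3cr1 (1.08 ± 0.111) and Ccr2 (0.0790 ± 0.0732 RPKM; SD, n = 3). The ranges of Ccr1 and Cxcr4 overlapped in both genotypes, and those of the other neighbours in each order did not. Between the genotypes Cx3cr1 and Ccr7 changed places. In each sEH-/- library the RPKM of Cx3cr1 was above that of Ccr7, by 1.36 ± 1.40 on the log2 scale, and in each wild-type library it was below, with a difference of -0.89 ± 0.79 (SD, n = 3 each). The order of this pair depended on the gene length. Per coding length in place of exonic length, Cx3cr1 was above Ccr7 in 2 of 3 wild-type libraries (0.39 ± 0.79 on the log2 scale) and in 3 of 3 sEH-/- libraries (2.64 ± 1.40).

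The 6 receptors were then set against the sum of the RPKM of 19 chemokine receptors, these 6 included. Ccr1 made up 39.2% ± 1.64 of this sum in sEH-/- and 39.9% ± 1.99 in wild-type cells (SD, n = 3 each), and Cxcr4 made up 38.6% ± 2.63 and 36.6% ± 1.42. Ccrl2 followed with 17.1% ± 3.87 and 20.4% ± 2.68, so that these 3 receptors carried most of the transcripts of the 19 in either genotype. The share of Cx3cr1 was 1.28%, 3.60% and 2.24% in the sEH-/- and 0.516%, 0.539% and 0.622% in the wild-type libraries. Cx3cr1 thus rose from a very small share and remained a minor receptor transcript next to Ccr1 and Cxcr4. Ccr7 held 0.914% ± 0.388 and 1.15% ± 0.623, and Ccr2 held 0.0998% ± 0.0190 and 0.0395% ± 0.0341.

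**Figure D2:**
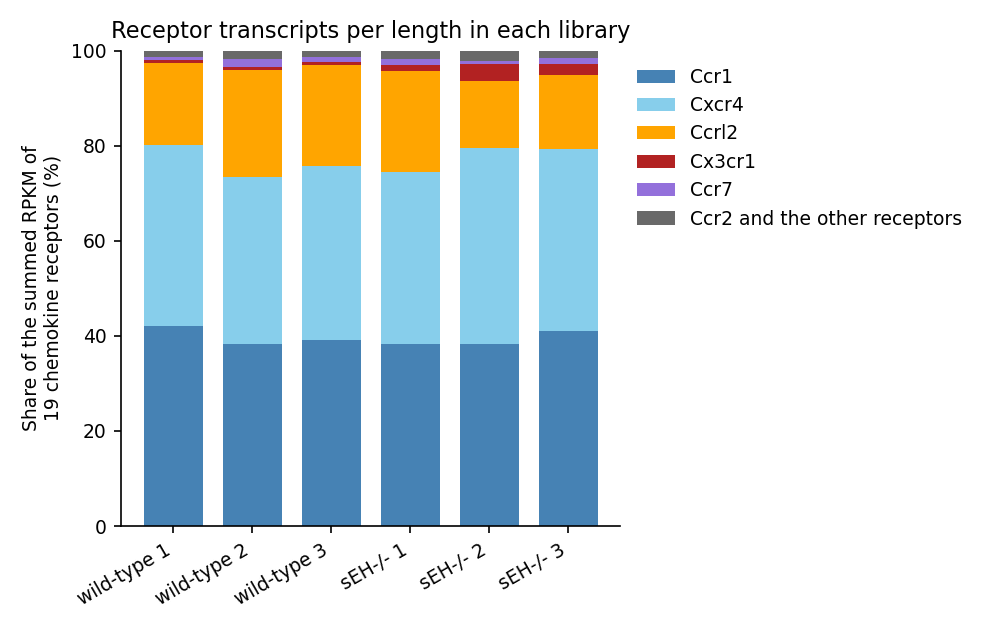
Share of each receptor in the summed RPKM of 19 chemokine receptors (y axis, percent), with 1 stacked bar for each library. Ccr1 and Cxcr4 make up the largest parts of every bar, and the red part, Cx3cr1, is 1.28% to 3.60% in the sEH-/- and 0.516% to 0.622% in the wild-type libraries.

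Ratios within a library do not depend on how libraries are scaled to each other, and 3 were tested between the genotypes by an exact two-sided permutation test, which cannot give a p below 0.1 with 3 against 3 libraries. The log2 ratio of Cx3cr1 to Ccr2 counts, with 0.5 added to each count, was 3.79 ± 0.78 in sEH-/- and 3.28 ± 1.17 in wild-type libraries (SD, n = 3 each; exact permutation p = 0.5). The ratio of Ccrl2 to Ccr1 was -1.35 ± 0.34 and -1.10 ± 0.27 (exact permutation p = 0.3), and that of Ccr7 to Cxcr4 was -5.34 ± 0.80 and -4.97 ± 0.85 (exact permutation p = 0.7). In all 3 ratios the libraries of the genotypes overlapped, and the larger relative increase of Cx3cr1 than of Ccr2 was within the spread between libraries.

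Of 17 other chemokine receptors examined, 13 were in the table and 5 passed the filter. Ackr3, an atypical receptor that binds Cxcl12 and clears it, was the only 1 of these called, with a log2 fold change of 3.01 and a standard error of 0.71 (adjusted p = 0.0466). Its counts were 32, 21 and 4 in the sEH-/- and 4, 1 and 2 in the wild-type libraries, so that sEH-/- replicate 3 held no more reads than wild-type replicate 1. The mean count in wild-type cells, 2.33, was below the filter, and the call was lost in 8 of 16 alternative fits. The log2 fold changes of Ccr3 (1.87, adjusted p = 0.133), Cxcr3 (1.14, adjusted p = 0.29), Ccr9 (-0.43, adjusted p = 0.671) and Cxcr1 (-1.01, adjusted p = 0.312) did not pass edgeR's test either, and none of these 4 genes exceeded 3.43 CPM in any library.

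Of 14 ligands of the 6 receptors, 10 were tested, and 3 were called higher and none lower in sEH-/- macrophages, where 1.51% of all tested genes were called higher. All 3 are inflammatory CC chemokines. Ccl12 and Ccl7, which attract monocytes through Ccr2, had log2 fold changes of 1.58 (adjusted p = 0.0439) and 0.70 (adjusted p = 0.048), and Ccl3, which binds Ccr1, had 1.29 (adjusted p = 0.0178). Ccl3 ranged from 15.5 to 26.4 CPM in sEH-/- and from 8.28 to 9.45 CPM in wild-type libraries. Ccl12 ranged from 11.8 to 25.2 CPM against 3.25 to 9.67 CPM, and Ccl7 from 45.0 to 72.5 CPM against 31.6 to 42.4 CPM. For 6 of the 10 tested ligands every sEH-/- library lay above every wild-type library, as for 11.8% of all tested genes. These were the 3 called ligands and Ccl2, Ccl6 and Ccl9, which were not called. Without wild-type replicate 2 or 3 none of the 10 ligands was called, and without sEH-/- replicate 1 or 2 only 1 was.

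The other ligands were not called. Ccl9, a Ccr1 ligand, passed the adjusted p (0.0297) with a log2 fold change of 0.47, which is below the fold threshold. Ccl2, the main Ccr2 ligand, had a log2 fold change of 0.27 (adjusted p = 0.189), and Ccl5 and Ccl6 had 0.11 (adjusted p = 0.629) and 0.29 (adjusted p = 0.074). The counts of Ccl5 lay between 491 and 507 in all 6 libraries, at 0.522 counts per exonic base, so that they did not follow the library totals, and a difference in Ccl5 could be hidden by the removal of duplicates. Ccl2 (0.467) and Ccl6 (0.464 counts per exonic base) were also near this limit, and had log2 fold changes of 0.35 and 0.37 with the same correction as for Ccr1 and Cxcr4, below the fold threshold. Cx3cl1, the ligand of the receptor that rose, had -0.018 with a standard error of 0.35 (adjusted p = 0.983) and 3.43 to 9.51 CPM in sEH-/- against 4.87 to 6.99 CPM in wild-type libraries. Its sign changed when 1 library was left out. Ccl8 had -0.076 (adjusted p = 0.851) and Mif, a cytokine that also binds Cxcr4, 0.071 (adjusted p = 0.76). The chemerin gene Rarres2 and Cxcl12 were below the filter in both genotypes.

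**Figure D3:**
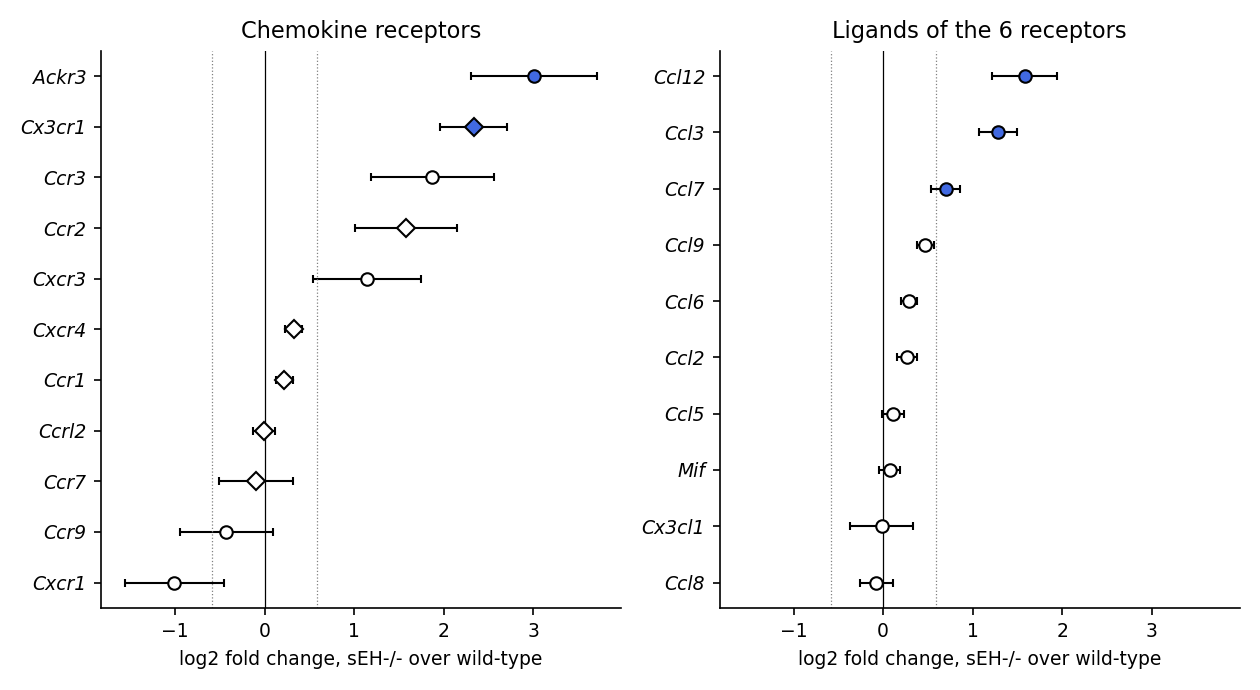
Log2 fold changes (x axis, sEH-/- over wild-type) with standard errors of 11 tested chemokine receptors (left; diamonds mark the 6 receptors examined) and of 10 tested ligands (right). Filled symbols are called, namely Ackr3, Cx3cr1, Ccl12, Ccl3 and Ccl7, and dotted lines mark the 1.5-fold threshold.

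Receptors for chemoattractants other than chemokines were compared in the same fit. Of 11 such genes 5 were called higher and none lower in sEH-/- macrophages, with a median log2 fold change of 0.47. Over all tested genes 1.51% were called higher, and the median was -0.0009. Fpr1, a receptor for formylated bacterial peptides, ranged from 85.3 to 107 CPM in sEH-/- and from 29.4 to 50.1 CPM in wild-type libraries (log2 fold change 1.35, adjusted p = 0.00866). Its relative Fpr2 rose by 0.76 on the log2 scale (adjusted p = 0.0311), the complement C5a receptor gene C5ar1 by 0.67 (adjusted p = 0.0486), the leukotriene receptor gene Cysltr1 by 0.90 (adjusted p = 0.0483) and the sphingosine-1-phosphate receptor gene S1pr1 by 0.87 (adjusted p = 0.0247). The receptors C5ar2 (0.47), C3ar1 (0.18), Cmklr1 (0.30), Ptafr (0.044), Ltb4r1 (-0.093) and Gpr183 (-0.94) did not pass the test. The number called fell to 1 without sEH-/- replicate 2 or wild-type replicate 2, and to 0 without wild-type replicate 3.

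The machinery downstream of the receptors was represented by 29 tested genes for G protein subunits, receptor kinases, arrestins, regulators of G protein signalling and effectors of migration. Beside 1.51% of all tested genes called higher, 3 of these were called higher and none lower. They are 3 of the 6 tested genes for regulators of G protein signalling (Rgs), proteins that shorten G protein signals. Rgs16 had a log2 fold change of 1.58 (adjusted p = 0.0351), Rgs14 of 1.01 (adjusted p = 0.0293) and Rgs2 of 0.62 (adjusted p = 0.0386), whereas Rgs1 (0.091), Rgs18 (0.21) and Rgs19 (0.22) were not called. The median of the 29 genes was 0.12. None of the 29 was called without sEH-/- replicate 2 or without wild-type replicate 2 or 3.

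Several genes that mark monocytes were also higher. Of 7 tested markers of Ly6C-high monocytes, the cells that enter inflamed tissue, 4 were called higher in sEH-/- cells, beside 1.51% of all tested genes. Fn1, which encodes fibronectin, rose by 1.71 on the log2 scale (adjusted p = 0.00866), Ly6c2 by 1.24 (adjusted p = 0.0105), Plac8 by 2.35 (adjusted p = 0.0266) and the coagulation factor gene F13a1 by 3.28 (adjusted p = 0.0481). F13a1 rested on sEH-/- replicate 2, with 3.42, 19.2 and 3.25 CPM in the sEH-/- libraries. Without that library its log2 fold change was 1.94 and it was not called (adjusted p = 0.061), and the call was lost in 7 of 17 alternative fits. Its mean count in wild-type cells was 4.67, so that it passed the filter through the sEH-/- libraries. The summed level of the 7 genes was 531 to 774 CPM in sEH-/- and 392 to 477 CPM in wild-type libraries. Fn1 had the largest part in that difference (262.5 ± 84.1 against 80.2 ± 13.2 CPM, SD, n = 3 each). The genotypes overlapped for Chil3 (0.089) and Mgst1 (0.14), which were not called. Of the 7 genes, 2 were called without wild-type replicate 2 and none without wild-type replicate 3, with all 7 log2 fold changes above 0 in both fits. Of 7 markers of Ly6C-low monocytes only the transcription factor gene Pou2f2 was called (1.53, adjusted p = 0.0178). Its call was lost without wild-type replicate 2 or 3. The median log2 fold change of this list was 0.96, with 6 of 7 values above 0. For 4 of the 7 every sEH-/- library lay above every wild-type library, as for 11.8% of all tested genes, and 3 overlapped. The separated genes were Pou2f2 and, not called, Spn (1.36), Treml4 (1.32) and Nr4a1 (0.96). The list summed to 380 to 508 CPM against 282 to 368 CPM. Most of this sum came from Itgal, with 319 to 435 CPM in sEH-/- and 241 to 330 CPM in wild-type libraries. Itgal was not called, and its genotypes overlapped. The part of these genes in the rise of Cx3cr1 was not tested.

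Of genes that depend on TGF-β in microglia, a macrophage type with abundant Cx3cr1, 2 of 3 tested were called higher. Over all tested genes the share called higher was 1.51%. Tmem119 was 82.1 to 89.0 CPM in sEH-/- and 43.0 to 52.1 CPM in wild-type libraries (log2 fold change 0.86, adjusted p = 0.00418), and Olfml3 was 62.6 to 108 CPM against 28.4 to 47.9 CPM (1.14, adjusted p = 0.0293). The receptor gene P2ry12 had a log2 fold change of 1.70 and was not called (adjusted p = 0.0843), and Gpr34 and Fcrls were below the filter. The 5 genes summed to 152 to 216 CPM in sEH-/- and 73.5 to 107 CPM in wild-type libraries, and 1 and 0 of the 3 tested genes were called without wild-type replicates 2 and 3.

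None of 8 macrophage markers was called, but several were near the limit set by the removal of duplicates. Lyz2 (lysozyme) had 1153 to 1173 counts in every library, at 0.881 counts per exonic base, and Cd68 and Adgre1 had 0.886 and 0.635, so that these genes say little about a difference. Cd14, the LPS co-receptor, passed the adjusted p (0.0288) with a log2 fold change of 0.50, which is below the fold threshold, and was called higher after the ceiling correction (0.68, adjusted p = 0.012). The 8 log2 fold changes were above 0 with a median of 0.21, Cd68 being at -0.04 after that correction, and their sum was 1980 to 2460 CPM against 1740 to 2200 CPM. Markers of mature dendritic cells, the cells known for Ccr7, included 2 of 8 genes called higher, beside 1.51% of all tested genes. They were Ccl22 (1.15, adjusted p = 0.0345) and Zmynd15 (0.99, adjusted p = 0.0255). Those not called were Fscn1 (1.03), Relb (0.46), Tmem123 (0.069), Cacnb3 (0.039), Il4i1 (-0.0044) and Cd83 (-0.24). Relb passed the adjusted p (0.0408) but not the fold threshold. For 4 of the 8 genes every sEH-/- library lay above every wild-type library, as for 11.8% of all tested genes. These were Ccl22, Zmynd15, Fscn1 and Relb. Without wild-type replicate 2 or 3, 0 of the 8 were called. Of the 8 log2 fold changes 6 were above 0, and the list summed to 339 to 382 CPM against 293 to 299 CPM. Among markers of other dendritic cells none of 4 tested was called, Cd209a was at 0 in all libraries, and the sum was 44.3 to 97.4 CPM against 66.2 to 84.9 CPM. Of these 4 genes 3 had log2 fold changes below 0, with a median of -0.57. Zbtb46 had -0.98 (adjusted p = 0.115) and Batf3 -0.82 (adjusted p = 0.138). For Batf3 every sEH-/- library lay below every wild-type library, as for 14.5% of all tested genes. Neutrophil markers summed to 28.4 to 32.1 CPM in sEH-/- and 17.6 to 21.2 CPM in wild-type libraries, most of it from S100a8. Stromal and endothelial markers summed to 15.8 to 31.7 CPM against 12.3 to 60.5 CPM, and the lymphocyte marker Klrb1c did not exceed 0.807 CPM in any library. The part of these cell types in the values of the 6 receptors was not tested.

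The genes with the profile most like that of a receptor were found by the root mean square difference of log2 CPM, centred on the mean of the 6 libraries, over the 10276 genes whose mean count was 50 or more. For Cx3cr1 these were Fn1 (0.36), Mefv (0.39) and Rgs16 (0.43), beside a median of 1.10 over all candidates. All 3 were called higher, Mefv, the gene for the inflammasome protein pyrin, by 2.22 on the log2 scale (adjusted p = 0.0058). Like Cx3cr1, Fn1, Mefv and Rgs16 were highest in sEH-/- replicate 2 and lowest, within that genotype, in replicate 1. This is a description over 6 libraries that share their depth and genotype, and the measure favours genes with a like difference between the genotypes. It also favours a like order of the libraries within a genotype, so that the shared order largely follows from how these genes were picked.

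**Figure D4:**
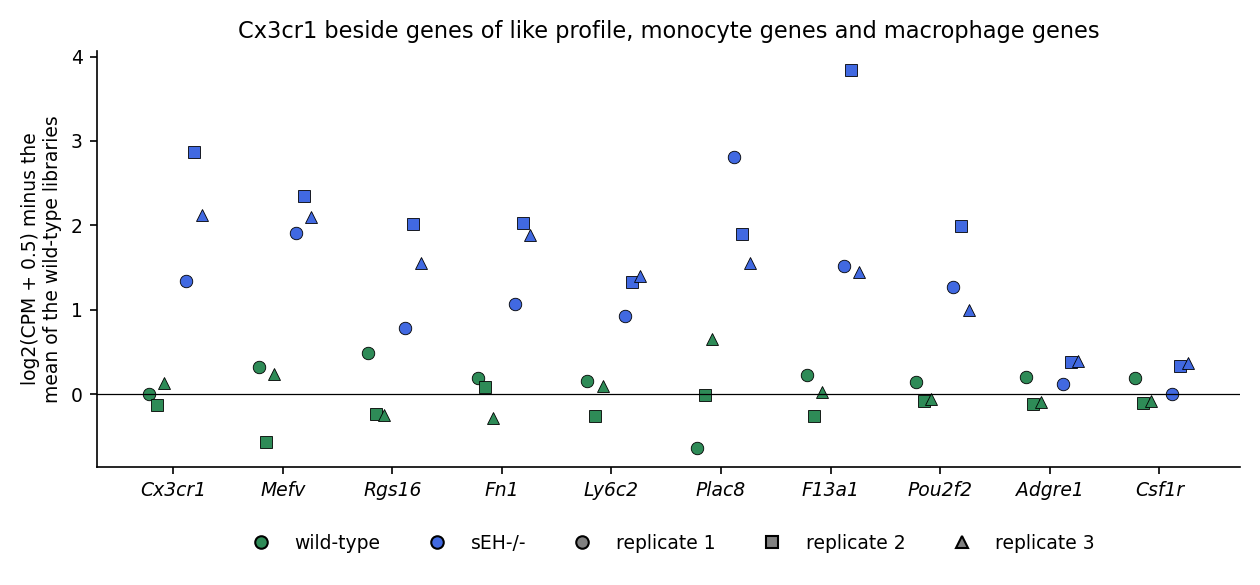
Log2(CPM + 0.5) minus the mean of the wild-type libraries (y axis) for Cx3cr1, its 3 nearest genes by profile (Mefv, Rgs16 and Fn1), further markers of monocytes (Ly6c2, Plac8, F13a1 and Pou2f2) and macrophage genes (Adgre1 and Csf1r), with 1 symbol for each library. The sEH-/- libraries (blue) lie above the wild-type libraries (green) for the first 8 genes and overlap with them for Adgre1 and Csf1r. The monocyte genes drawn are called ones, so that the figure does not compare whole lists. Among genes of the same lists that are not drawn, Chil3, Mgst1, Itgal, Ace and Eno3 overlap. The sEH-/- libraries lie above for Vcan, Nr4a1, Spn and Treml4 and for the macrophage genes Fcgr1 and Cd14.

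For the other receptors the nearest genes were Slc15a3 (0.021), Sh3bp2 (0.022) and Cd47 (0.024) for Ccr1, Tnfaip8l3 (0.16), Thbs1 (0.17) and Rasgrp2 (0.26) for Ccr2, and Tor1aip1 (0.012), Tor3a (0.015) and Junb (0.026) for Cxcr4. Erv3 (0.22), Prom1 (0.23) and Amotl1 (0.24) were nearest to Ccr7, and Sec61a2 (0.042), Mier3 (0.052) and Fkbp5 (0.052) to Ccrl2. The small distances for Ccr1, Cxcr4 and Ccrl2 come with a median over all candidates of 0.19 to 0.23, since genes with many counts and little change are all alike on this scale.

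Of the 6 receptor genes 4 lie on chromosome 9. Ccr1 and Ccr2 are 133 kb apart, Cx3cr1 and Ccr1 are 3.89 Mb apart, and Ccrl2 and Cx3cr1 are 8.84 Mb apart. Among 25 other tested genes within 200 kb of a receptor, 1 was called, Igfbp4 near Ccr7 (log2 fold change 0.98, adjusted p = 0.0297), beside 2.61% of all tested genes. No gene within 200 kb of Ccr1 or Ccr2 was called, including Ccr3, which lies between them (log2 fold change 1.87). The difference in Cx3cr1 was not accompanied by a call in Ccr1, Ccr2 or Ccrl2 on the same chromosome.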

How the data were processed

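The data are 6 libraries of RNA from M2c macrophages, 3 for each genotype. Per the labels, the authors trimmed reads with Trimmomatic 0.39, aligned them to mm10 with STAR 2.7.7a, removed duplicates with Picard 2.21.7 and counted reads over exons with featureCounts 1.6.5, strand-aware and without multi-mapping, ribosomal or mitochondrial reads. The labels and the methods differ on tool versions, on the library kit (mRNA or total RNA) and on the RNA input. The deposited values are raw counts, whole numbers without normalization, for 19309 genes, of which 282 had no count. The removal of duplicates caps the counts of short, abundant transcripts.

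For the tests, edgeR 4.0.16 was run in R 4.3.3 (quasi-likelihood test, TMM factors, no covariates, Benjamini-Hochberg adjustment over all 13785 genes with a mean above 5 counts, which held 99.8% of all counts). Calls needed an adjusted p below 0.05 and a log2 fold change of more than 0.585 in size, that is a fold change of 1.5, and every adjusted p in the text is from edgeR unless another tool is named. CPM were computed here on TMM library sizes, and RPKM on exon lengths of GENCODE M21, where 19286 identifiers were found. The spread between the mice sets the p-values, and intervals of counts cover counting error only. Libraries of the same replicate number were not positively correlated in their deviations from the group means (r = -0.086, -0.268 and -0.038), so that no pairing was used. No pair of libraries agreed within sampling noise. Tests were tried on simulated counts. The 6 receptors, the 14 gene lists and the motifs were chosen with earlier results of these data known. Named genes are the 6 receptors, Ephx2, the tested genes of the lists of receptors and ligands, in other lists the called genes (at most 4 with the highest mean count), called genes within 200 kb, and the 3 genes nearest in profile; other names were chosen after their values were seen. Alternatives were DESeq2 1.42.0, limma-voom 3.58.1, other scaling, filters and thresholds, thinning, a ceiling correction, the library total as a covariate, a replicate block, leaving out each library, other gene lengths and other windows. Some genes of the lists are not reported here, and sums and counts over lists leave them out. Figures were drawn with matplotlib 3.10.9.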

Additional observations from a re-analysis of the deposited data

How the results depend on the processing

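Cx3cr1 stayed higher in sEH-/- cells in all 19 alternative fits and was called in 16 of them; the exceptions were glmTreat (2.34, adjusted p = 0.090) and the fits without wild-type replicate 2 or 3, and leaving out single libraries gave 1.87 to 2.66. The calls over all genes, 360 as reported, were 234 with a replicate block, 171 with the library total as a covariate, 10 in glmTreat, 553 without a fold threshold, and 6 to 625 with 1 library left out. The block did not change a call among the 6 receptors (Cx3cr1 2.27, adjusted p = 0.0065) but lost those of Ccl12, Cysltr1, Rgs2, Rgs16 and Ccl22. No library correlated best with its own replicate number. The number of receptors called was 1 as reported, 0 in glmTreat and 0 to 2 with 1 library left out. Ccr2 was 1.17 to 2.48 without 1 wild-type library, could not be fitted without 1 sEH-/- library or with stricter filters and thinning, and had no adjusted p in DESeq2.

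Ccr7 turned to 0.078 with the library total as a covariate and was -0.35 to 0.35 with 1 library left out (0.21 without sEH-/- replicate 2 and 0.35 without wild-type replicate 2). Ccrl2 turned to 0.0015 with RLE size factors, 0.0071 with at least 10 counts in every library and 0.058 with the covariate, and was -0.19 to 0.11 with 1 library left out (0.11, 0.069, 0.018 and 0.025 without sEH-/- replicate 2 or 3 or wild-type replicate 2 or 3). The difference between the genotypes in the log2 ratio of Cx3cr1 to Ccr2 was -0.11 to 1.05, that of Ccrl2 to Ccr1 was -0.45 to -0.14 and that of Ccr7 to Cxcr4 was -0.79 to 0.10 with 1 library left out. Per coding length 4 of 5 neighbours in the wild-type level order kept their order, the exception being Cx3cr1 and Ccr7. With a window of 500 kb, 2 genes around the receptors were called. Cx3cl1 turned to 0.024 after thinning and was -0.42 to 0.29 with 1 library left out, Ccl8 was -0.26 to 0.035, Mif -0.0074 to 0.17 and Ptafr -0.036 to 0.088. The cause of these changes was not tested, and 3 mice per genotype, the low counts of Ccr2 and the cap on abundant, short transcripts limit what could be detected.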
